A study of Mus musculus with 2 samples.

Results

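The 3 members described here, mmu-miR-140, mmu-miR-140* and mmu-miR-455, are microRNAs (miRNAs) known for their high levels in cartilage. They were chosen by name, as the probes of both arrays that carry these names once a version suffix is removed, and are 3 of 1080 miRNAs on the array. RNA came from the medial region of the mandibular arch, the tongue primordium, of ICR mouse embryos at embryonic stages E11.5 and E10.5, and RNA from 40 embryos was pooled per stage. No mutation or treatment is labelled in either pool, and each pool was hybridised to 1 array, both on 1 slide and scanned once. With 1 array per stage no difference was tested, and every error below is a spread over the repeated spots of a probe within an array. The series set the stages side by side because muscle regulatory genes become active in the tongue primordium in this window.

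A miRNA is cut from a hairpin precursor, whose arms each yield a short strand. The strand loaded into an Argonaute protein guides it to mRNAs by pairing through its seed, bases 2 to 8, and lowers their translation and stability. miR-140 lies in Wwp2, the gene of a ubiquitin ligase, is activated by the cartilage transcription factor Sox9, and its loss in mice shortens bones that form through cartilage, those of the skull included. miR-455 lies in Col27a1, which encodes a fibrillar collagen of cartilage. In the mandibular arch, neural crest mesenchyme beside the tongue primordium forms Meckel's cartilage.

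The hairpin of Mir140 is shown because both of its arms were measured, and because the place of each probe's target in it settles which arm a name stands for. The sequence is from RefSeq (GRCm38.p6, chromosome 8, plus strand, 70 bases), and capitals mark the probe targets.
Mir140 hairpin: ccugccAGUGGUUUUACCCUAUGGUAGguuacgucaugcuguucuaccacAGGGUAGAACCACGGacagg
The target named miR-140 lies in the 5′ arm (bases 7 to 27 of the hairpin), and that named miR-140* in the 3′ arm (bases 51 to 65). In the GRCm38.p6 gene table Mir140 lies within the span of Wwp2 and Mir455 within that of Col27a1, each on the same strand as its host.

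The mature strands that RefSeq (GRCm38.p6) gives for these precursors are shown with the seed in capitals.
mmu-miR-140-3p: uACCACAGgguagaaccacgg
mmu-miR-455-3p: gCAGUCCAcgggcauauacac
mmu-miR-455-5p: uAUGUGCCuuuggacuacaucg
The mature strand of the 5′ arm of Mir140, the array's miR-140, was missing from the reference used, so its seed is not shown or compared. The 3 seeds shown differ from each other. Among 1679 mature mouse miRNAs in the table, mmu-miR-497b has the seed of miR-140-3p, mmu-miR-5129-3p has that of miR-455-5p, and 0 others have that of miR-455-3p. Neither of the miRNAs that share a seed was on the array under that name. By sequence, the array's miR-140* is miR-140-3p, its miR-455 is miR-455-3p, and its miR-455* is miR-455-5p.

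Each name had a pair of probes that differ by 1 base of length, each in 20 spots. The probes are shown 5′ to 3′ because they decide what was read, and the capital is the base that the shorter probe of the pair lacks.
miR-140, longer probe: ctaccatagggtaaaaccacT
miR-140*, longer probe: ccgtggttctacccT
miR-455, longer probe: gtgtatatgcccgtgG
miR-455*, longer probe: cgatgtagtccaaaggcA
The deposited files place the longer probes on mm9, in the order shown, at chr8:110075151-110075170, chr8:110075195-110075208, chr4:62917944-62917958 and chr4:62917906-62917922, in each case a span 1 base shorter than the probe. The miR-140 probe is 21 bases long and has 42.9% G and C. The miR-140* probe is 15 bases long, with 60.0% G and C, and pairs with bases 7 to 21 of miR-140-3p, and the miR-455 probe pairs with bases 6 to 21 of miR-455-3p. The probes of miR-140* and miR-455 thus cover 2 and 3 of the 7 seed bases. No target of these probes occurs whole in a mature miRNA of another gene in the table, and no other miRNA on the array has the same probe. Whether strands of similar sequence bind these probes was not tested.

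The members were present at both stages and their intensity was close to the detection limit at E10.5. Detection of a probe required 50% or more of its spots to be well above background, and 3 of 3 members had such a probe on either array. Of all 1080 miRNAs, 199 had one at E11.5 and 144 at E10.5. Of the members' 6 probes 4 were detected on both arrays, both probes of miR-140 and the longer probe of miR-140* and of miR-455. Their mean processed intensity was between 85.9 and 140 in the E11.5 pool and between 40.7 and 60.0 in the E10.5 pool. The dimmest detected probe of any miRNA had 29.5 in the E11.5 pool and 30.9 in the E10.5 pool, and negative control spots gave 5.88 ± 5.60 against 7.87 ± 6.16 (SD, 1000 spots each).

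miR-140, the 5′ arm, is the strand that represses the aggrecan-cleaving protease gene Adamts5 in mouse cartilage. Its longer probe had a lowest, median and highest spot of 123, 139 and 161 in the E11.5 pool, against 44.6, 63.1 and 66.3 in the E10.5 pool. The shorter probe had 78.0, 97.1 and 110 in the E11.5 pool, against 31.1, 40.7 and 52.4 in the E10.5 pool. On both probes every spot at E11.5 was brighter than every spot at E10.5. The means were 140 ± 9.5 at E11.5 (SD, 20 spots) and 60.0 ± 6.86 at E10.5 (19 spots) for the longer probe, and 96.2 ± 8.06 and 40.7 ± 5.08 for the shorter.

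miR-140*, the 3′ arm, is by convention the passenger strand of the duplex, but is itself abundant in cartilage. Its longer probe had a lowest, median and highest spot of 124, 141 and 157 in the E11.5 pool, against 39.3, 52.3 and 57.3 in the E10.5 pool. The spots of the stages did not overlap. The means were 140 ± 9.37 at E11.5 (19 spots) and 51.4 ± 4.75 at E10.5, where 5 of the 20 spots carried an outlier flag and were left out. The shorter probe, without the final base, had 29.4 ± 6.67 at E11.5 and 9.82 ± 4.50 at E10.5. It was well above background in 8 of 19 spots at E11.5 and in 0 of 19 at E10.5, so it was not counted as detected at either stage and gives no fold.

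miR-455 is also induced during chondrogenesis, in mouse and human cells. Its longer probe had a lowest, median and highest spot of 65.6, 86.4 and 104 in the E11.5 pool, against 30.8, 41.7 and 56.5 in the E10.5 pool, with no overlap. The means were 85.9 ± 8.68 and 41.8 ± 6.95 (SD, 20 spots each), and at E10.5 19 of 20 spots were well above background. The shorter probe was not well above background in any spot, with 11.2 ± 5.53 at E11.5 against 4.87 ± 5.37 for the E10.5 pool. The other arm of the precursor, miR-455*, was not detected. Its longer probe averaged 5.92 ± 4.62 in the E11.5 pool and 1.43 ± 4.4 in the E10.5 pool, and its shorter probe 0.29 ± 3.97 and 1.39 ± 4.61. None of these lay more than 1 SD above the negative controls.

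**Figure D1:**
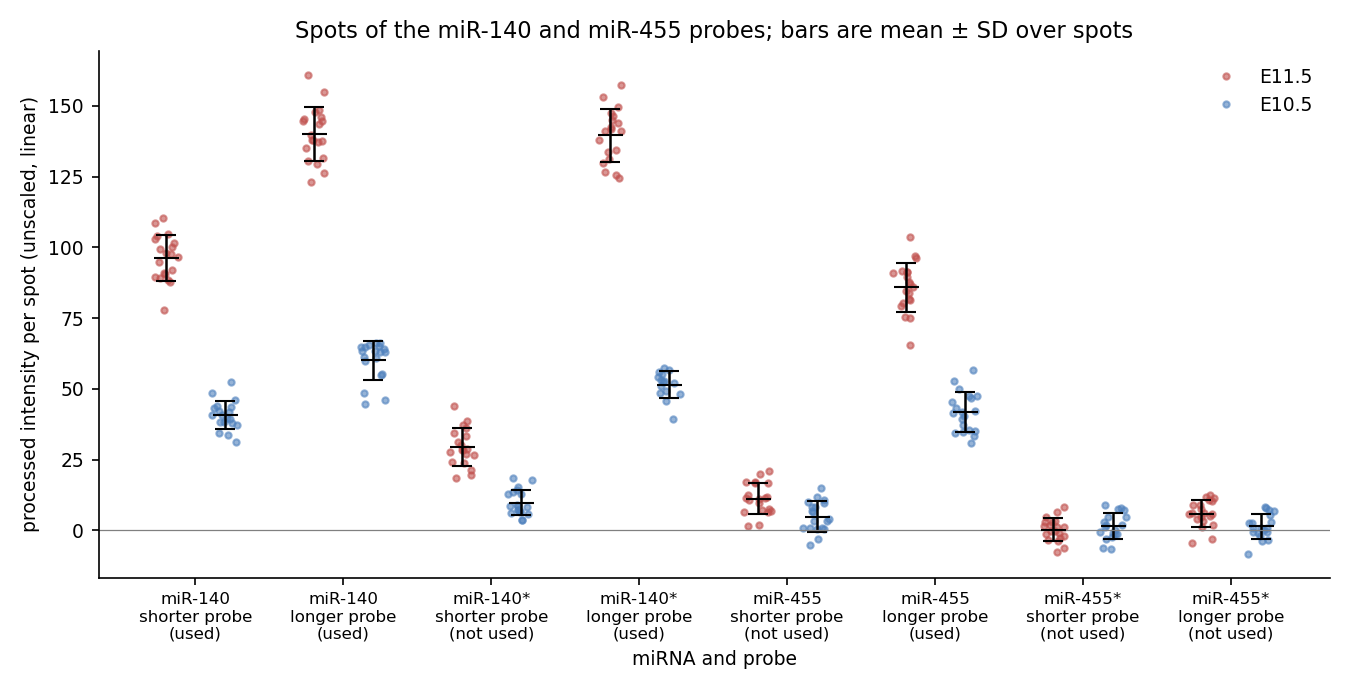
Processed intensity of each spot (vertical axis, linear, not scaled between arrays) for the shorter and longer probe of miR-140, miR-140*, miR-455 and miR-455* (horizontal axis), at E11.5 and E10.5, without outlier spots. Bars are the mean ± SD over spots. On the 4 probes used in the comparison all E11.5 spots lie above all E10.5 spots, while both miR-455* probes sit near 0.

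Before scaling, the members were therefore brighter at E11.5, like most miRNAs on the arrays. Unscaled E11.5 over E10.5 was 2.72-fold for miR-140*, 2.35-fold for miR-140 and 2.06-fold for miR-455. All 3 were past 2-fold, as were 64.2% of the 137 miRNAs detected on both arrays. All 4 of their detected probes had spots at E11.5 wholly above those at E10.5, against 80.7% of 218 probes. The members' shares thus rest on few probes and sit beside a background that is itself high. Control probes were brighter at E11.5 too (20 were detected on both arrays), by a log2 ratio of 0.26 to 0.90 with a median of 0.49.

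Relative to the other miRNAs, the members differed little between the stages. To set them on a common scale, intensities were divided by the 75th percentile of the array, taken over probes detected at both stages (482 for E11.5, 194 for E10.5). This takes 1.31 off every log2 difference, and all values from here on are such scaled differences, E11.5 minus E10.5, with the SE over spots. miR-140* differed by 0.13 ± 0.041, miR-140 by -0.08 ± 0.033 and miR-455 by -0.27 ± 0.063. These are 1.09-fold, 0.945-fold and 0.828-fold, and 0 of 3 reached 2-fold in either direction, where 17.5% of the 137 miRNAs did (3.65% at least 2-fold higher and 13.9% at least 2-fold lower). Both probes of miR-140 gave the same small value, -0.07 ± 0.049 for the shorter and -0.09 ± 0.044 for the longer.

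The members stood in the middle of the distribution. Among 137 miRNAs ranked from the highest difference, miR-140* was at 56, miR-140 at 70 and miR-455 at 85. The quartiles of all miRNAs were -0.74 and 0.30, with a median of -0.07, and the 3 members have a median of -0.08. In all 30 miRNAs (21.9%), the members included, lay between miR-455 and miR-140*. Set against the median miRNA, miR-140* was higher by 0.20, miR-140 lay at -0.01 and miR-455 at -0.20. The signs of the scaled differences rest on the processing. All 3 members were above 0 when left unscaled or scaled to all probes or to control probes, miR-140 also with quantile normalization (0.04), and all 3 were below 0 with normexp background correction. In a pooled tissue, a change in the share of cells that hold a miRNA and a change in its level per cell cannot be told apart.

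**Figure D2:**
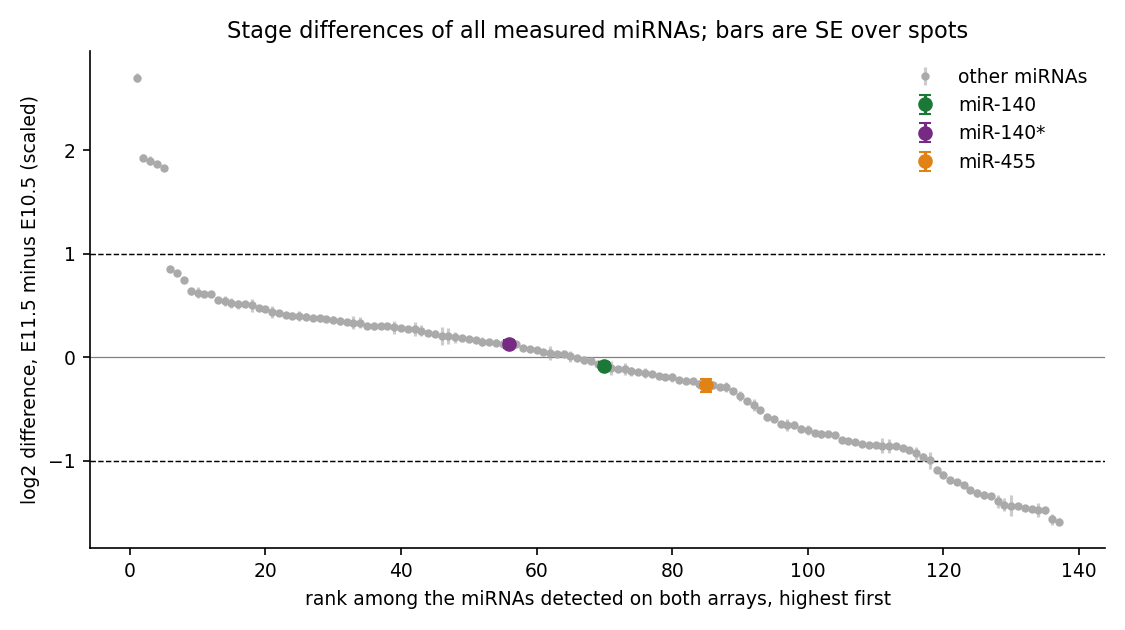
Scaled log2 difference, E11.5 minus E10.5 (vertical axis), of the 137 miRNAs detected on both arrays, by rank from the highest (horizontal axis), with the SE over spots as bars and dashed lines at 2-fold. miR-140*, miR-140 and miR-455, in colour, lie at ranks 56, 70 and 85, between the lines.

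Whether the arms of one precursor kept step was asked of miR-140 and miR-140*. Only stage differences can be set side by side, since the probes of different strands bind differently and their intensities share no scale. The difference of miR-140* exceeded that of miR-140 by 0.21 ± 0.053. miR-455 minus miR-140 was -0.19 ± 0.071, and miR-455 minus miR-140* was -0.40 ± 0.075. Scaling by any common factor leaves the arm contrast as it is. In this contrast miR-140* rests on 1 probe with 51.4 at E10.5, and 1 array per stage gives no spread between embryos or pools.

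A pair of yardsticks for that contrast came from the same arrays. Across 80 miRNAs with more than 1 detected probe, the gap between probes of the same miRNA had a median of 0.06 and a 90th percentile of 0.17, and it exceeded the arm contrast of miR-140 in 5 (6.25%). The gap between the probes of miR-140 was 0.02. With 1 detected probe, miR-140* is not among the 80. Both arms were dim, with miR-140 at 103 and miR-140* at 94 of 137 from the brightest. Probe gaps were not compared at like brightness. Across 11 precursors with both arms measured, the absolute contrast between arms ran from 0.02 to 1.42, and that of miR-140 was the median, the sixth from the smallest. Arms were paired by name, so strands made at more than 1 locus were not set apart. The smallest was that of miR-411, at 0.33 and, for miR-411*, 0.35, and the largest that of miR-335, with miR-335-5p at -0.15 and miR-335-3p at -1.57.

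**Figure D3:**
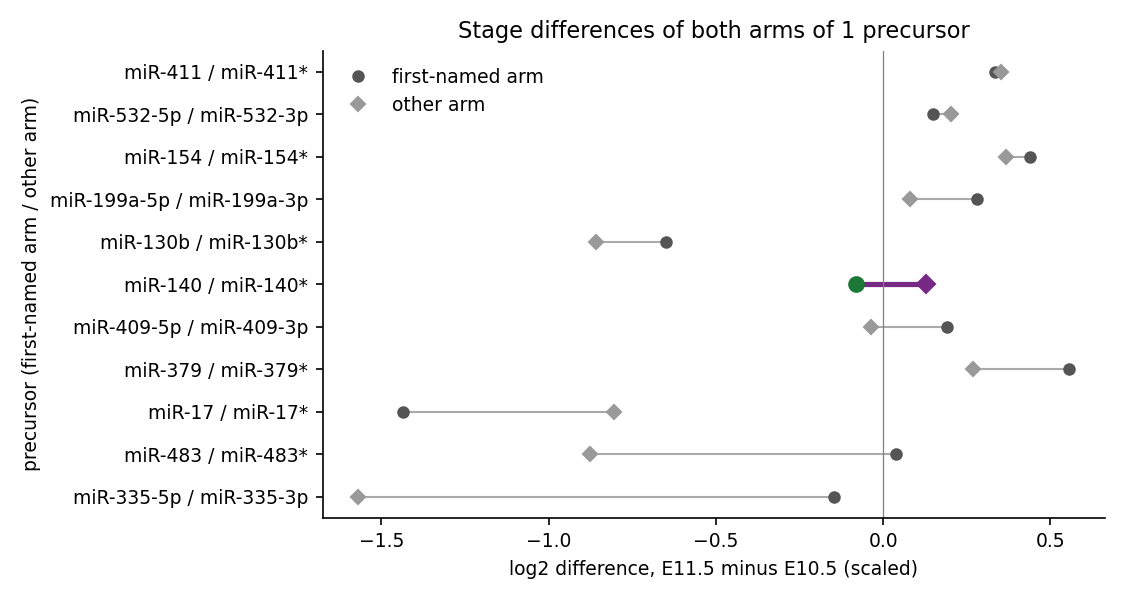
Scaled log2 difference, E11.5 minus E10.5 (horizontal axis), of both arms of 11 precursors, paired by name (vertical axis, smallest contrast at the top). Circles are the first-named arm and diamonds the other arm. The line of miR-140, in colour, joins -0.08 for miR-140 and 0.13 for miR-140*, and is of middle length.

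The deposited value table, which the authors normalized in a way not given in the sources used here, orders the members alike. In the authors' deposited table miR-140 had 46.5 at E11.5 and 49.6 at E10.5. miR-140* had 33.6 and 25.5 there, and miR-455 had 17.2 and 20.1. As log2 differences these values of the authors' deposited table are -0.09 for miR-140, 0.40 for miR-140* and -0.22 for miR-455. The contrast between arms was 0.49 in the authors' deposited table, larger than in the scanner data, and miR-455* is listed at 0.1, the value given there to undetected miRNAs, at both stages.

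The order of the members held across the processing tried. miR-140* was above miR-140 in 13 of 13 alternatives, by 0.16 to 0.49. Of these, 4 are common scalings that cannot alter this contrast. Leaving out the dimmest miRNAs only drops miRNAs from the list, so it cannot alter the contrast either. A value relative to the median miRNA is likewise fixed under the 4 common scalings. On that measure miR-140* was above in 13 of 13, from 0.01 with normexp background correction to 0.43 with the authors' deposited table. miR-455 was below in the 11 that gave it a value, from -0.31 with normexp to -0.04 with the gene detection flag. That flag admits every probe of a miRNA, so its values also use the undetected shorter probes of miR-140* and miR-455. miR-140 lay below in 10, at the median in 1 and above in 2, from -0.15 to 0.07.

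**Figure D4:**
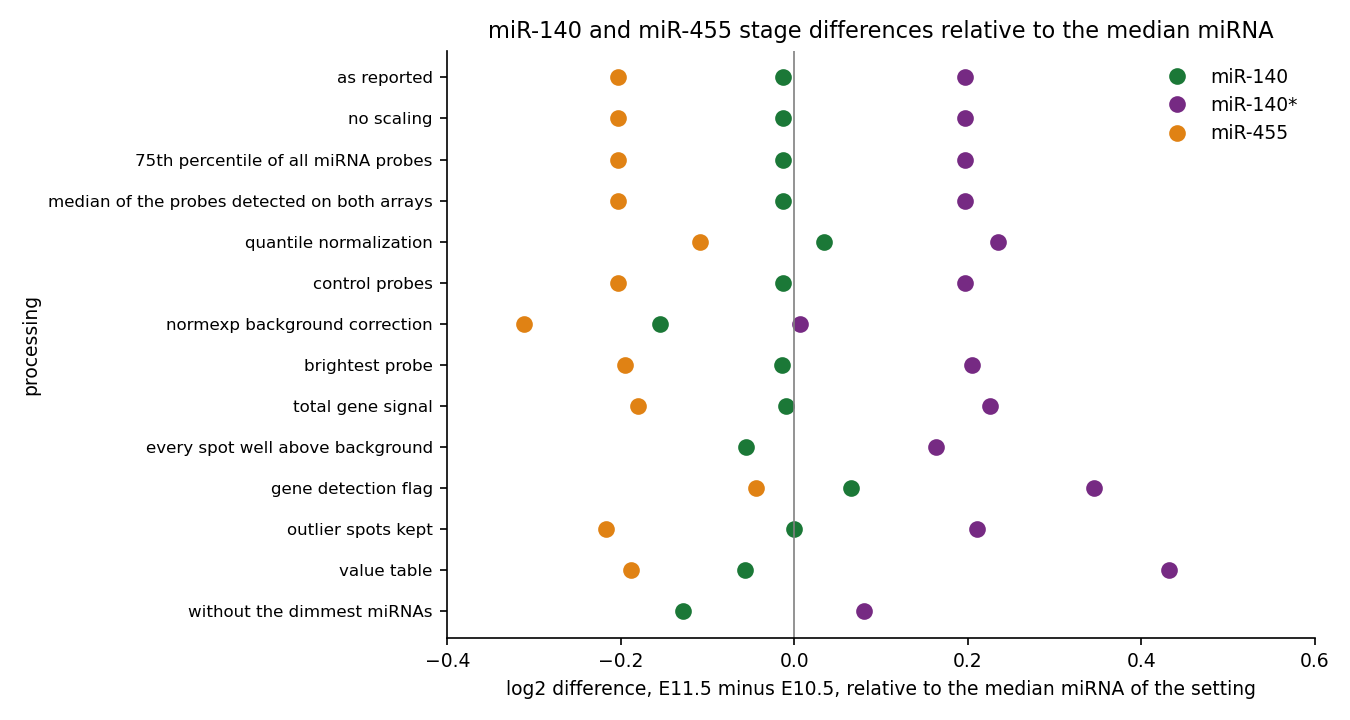
Log2 difference, E11.5 minus E10.5, of miR-140*, miR-140 and miR-455 relative to the median miRNA (horizontal axis), as reported and under 13 alternatives (vertical axis). miR-140* lies right of 0 in each row, by 0.01 with normexp, and miR-455 left of 0 wherever it has a value. It has none in the rows that require every spot well above background or leave out the dimmest miRNAs.

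The miRNAs nearest to the members in stage difference belonged to other families. Likeness was the absolute gap between differences, over 2 arrays, so it says little about a pattern. Nearest to miR-140 were miR-107 (-0.07) and miR-30b (-0.11). Nearest to miR-140* were miR-543 and miR-541, at 0.13 and 0.12, and nearest to miR-455 were miR-103 (-0.27) and miR-350 (-0.26).

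Other miRNAs linked to chondrocytes or chondrogenesis in published work lay on both sides of the members. Of 25 such miRNAs on the array 10 were measured in both pools, as were 137 of all 1080. Of the 10, 6 were above 0 and 4 below, with a median of 0.31, and of the 137, 65 were above 0 and 72 below, with a median of -0.07. None of the 10 was at least 2-fold higher, where 3.65% of all measured miRNAs were, and 1 was at least 2-fold lower, where 13.9% were. The 6 that were above 0 were also above miR-140*, and 2 of the others were below miR-455. miR-23b, miR-27b and miR-24, which share a cluster (miR-24 is also made at another locus), were at 0.74 ± 0.019, 0.61 ± 0.027 and 0.38 ± 0.015. miR-27b represses the collagenase gene MMP13 in human chondrocytes. miR-337-5p was at 0.36 ± 0.034, miR-125b-5p at 0.34 ± 0.012, and miR-199a-5p at 0.28 ± 0.020.

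Those below 0 were miR-30a (-0.03 ± 0.038), miR-675-3p, which is cut from the noncoding RNA H19 (-0.14 ± 0.041), miR-22 (-0.38 ± 0.048) and miR-18a of the Mir17 cluster (-1.10 ± 0.013). The 4 were above 0 unscaled and with all probes as the scale, by 0.22 for miR-18a unscaled, and miR-30a was above 0 in 7 of 13 alternatives. The 6 higher ones named before were above 0 in 13 of 13, miR-337-5p by 0.04 with normexp. Another 3 of the list were seen in the E11.5 pool alone, as were 62 of all 1080 miRNAs. miR-365 had 51.9 at E11.5 and 31.2 at E10.5, miR-337-3p had 57.9 and 22.3, and miR-193b had 50.2 and 9.60. A lower bound on each fold took the dimmest detected probe at E10.5 as the divisor. For miR-365 the divisor was its own E10.5 mean, which was higher. Scaled lower bounds were 0.65 to 0.75, so they do not show whether these miRNAs rose or fell. Unscaled lower bounds were 1.62 to 1.87. The other 12 of the list were not detected at either stage, nor were 874 of the 1080. Among these 12 were miR-145, which represses Sox9, and miR-675-5p.

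The markers of other tissues in the sample differed from one another in direction, and their part in the members' values was not tested. Of mesenchymal miRNAs, 3 of 3 were detected in both pools, with differences of 0.07 (miR-214), 0.08 (miR-199a-3p) and 0.28 (miR-199a-5p), and their brightest probes summed to 37.7 (E11.5) and 34.7 (E10.5) in units of each array's 75th percentile. miR-214 and miR-199a-3p were below 0 with the total gene signal (-0.08 and -0.06) and with detection by every spot. Such sums compare the pools within a list and not one list with another. Of 4 striated muscle miRNAs, 4 were detected in the E11.5 pool and 0 in the E10.5 pool, where 62 of all 1080 miRNAs were detected in the E11.5 pool alone. Of 7 epithelial miRNAs, the E11.5 pool held 5 and the E10.5 pool 4, with sums of 1.64 and 3.70 and all 4 measured ones below 0 (2 of them in every alternative, while miR-205 and miR-429 were above 0 unscaled). Of the 4, 3 were at least 2-fold lower, beside 72 of 137 miRNAs below 0 and 19 at least 2-fold lower. miR-126-3p of endothelium was at -0.81 ± 0.012 and miR-451 of red cells at -0.60 ± 0.033, both above 0 unscaled, while miR-126-5p and miR-144 were not detected, nor were the neural miR-124 and miR-9 at either stage.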

How the data were processed

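Per the labels' protocols, total RNA carried the Cy3 dye on a 1-colour array. The deposited scanner files hold an intensity per spot, background-subtracted and detrended within the array by Feature Extraction 10.7.1.1 (design 031184, build mm9), per the file headers. The submitters' processing notes name version 9.5.1.1. The authors' deposited table holds 1 linear intensity per miRNA, with column medians of 0.1 at both stages.

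Spots with an outlier flag were left out (2118 of 43200 at E11.5 and 2058 at E10.5), no miRNA spot was saturated, and the rest were averaged per probe. A miRNA's value is the mean of the scaled log2 differences of its probes detected on both arrays. Calls used a fold of 2. The members and lists were chosen with earlier results of these data known. Named are all members and miR-455*, every measured miRNA of the chondrocyte-linked list, the 2 nearest in stage difference per member, the extreme arm pairs and the tissue markers; miR-365, miR-337-3p, miR-193b, miR-145 and miR-675-5p were added after their values were seen. The 13 alternatives changed the scaling, the background correction (normexp, a convolution model, on mean signal and local background), the summary over probes, the detection rule (such as Feature Extraction's gene detection flag), the outlier spots, the dim miRNAs or the source of values. Precision is limited by the number of arrays. The steps were tested on simulated data with changes past a fold of 2 or with none. Differences as small as those of the members were not simulated. Python 3.11.15, numpy 2.4.6, pandas 2.3.3, matplotlib 3.10.9, R 4.3.3 and limma 3.58.1 were used.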

Additional observations from a re-analysis of the deposited data

Results flagged for a closer look

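The shorter probe of miR-140* was left out of the comparison because under 50% of its spots were well above background, yet it averaged 29.4 at E11.5, over 2 SDs above the negative controls of that array (5.88 ± 5.60). At E10.5 it averaged 9.82, where the negative controls had 7.87 ± 6.16. No cause was tested.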

How the results depend on the processing

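No paired analysis was possible because each stage had 1 array, and for the same reason no array could be left out. The contrast between the arms of miR-140 (0.21) stayed above 0 in 13 of 13 alternatives, some of which cannot alter it. It moved by more than the spot SD with the authors' deposited table alone, to 0.49. The stage differences depended on the scaling. Unscaled they were 1.23 for miR-140, 1.44 for miR-140* and 1.04 for miR-455. Scaled to the 75th percentile over all probes they were 1.13, 1.34 and 0.94, and scaled to control probes 0.74, 0.95 and 0.55. These move every miRNA, and the median of all 137 was then 1.24, 1.15 and 0.75. With normexp (offset 50) the members were at -0.44, -0.27 and -0.59, where the median of all miRNAs was -0.28. That offset is added to every spot, and the members' detected probes had mean processed intensities of only 40.7 to 60.0 at E10.5. Adding a constant shrinks a given ratio more for a dim probe than for a bright one. In the authors' deposited table miR-140* was at 0.40, while total gene signal put it at 0.0029 and miR-140 at -0.23. Requiring every spot to be well above background put them at 0.0015 and -0.22. With detection by every spot, and without the dimmest 25% of miRNAs, miR-455 had no value. The median of the chondrocyte-linked list (0.31) was above 0 in every alternative, at 1.62, 1.52 and 1.13 under these 3 scalings, and at 0.18 with detection by every spot, 0.17 with normexp and 0.16 with the total gene signal. miRNAs at least 2-fold higher at E11.5 numbered 5 as reported, 88, 80 and 49 under the same 3 scalings, and 9 each with the gene detection flag and the authors' deposited table. Those at least 2-fold lower numbered 19 as reported, 0 under each of these scalings and 12 without the dimmest 25%. Brightness limits these values, since the members lay close to the detection limit at E10.5. The cause of these shifts was not tested.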
